A study of Rattus norvegicus with 6 samples.

Results

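The liver makes most of the proteins that clot blood, and 10 genes of the clotting system were followed in liver RNA. These were the clotting factors F2, F5, F7, F9, F10, F11 and F12, the anticoagulants Serpinc1 and Proc, and the fibrin-digesting protease precursor Plg. They were chosen by symbol from a table of 32930 genes. All 10 were found, each on 1 row, and all 10 were among the 18455 genes that passed the expression filter and were tested. RNA came from the livers of 3 animals fed a high-fat diet with 0.5% CMC-Na, a cellulose vehicle (HFD group), and of 3 animals fed that diet and given HTG, the herbal Huazhuo Tiaozhi granule (HTG group), with 12 weeks of intervention in both. The sample labels give the 12 weeks and name the vehicle for the HFD group alone. In the study's rat experiment, gavage began some weeks into the diet, and the drugs were also given in 0.5% CMC-Na. The comparison asks how the treated and untreated fatty livers differ. The treatment label of the HTG samples reads HCG while their titles read HTG, the labels describe the livers as nonalcoholic fatty liver, and they give no strain, age or sex. The sample labels name rats and the submitters' processing notes name the rat build mRatBN7.2, whereas the study's sequencing methods name C57BL/6 J mice. Because each deposited row bears a mouse Ensembl identifier, the values are given as those of mouse genes, and the species of these libraries is uncertain.

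Clotting runs as a chain in which each protease precursor is cut and then cuts the next. Factor XII starts the contact route, which passes through factors XI and IX, and factor VII with tissue factor starts the other route. Both meet at factor X, which with its cofactor, factor V, turns prothrombin (the product of F2) into thrombin, the enzyme that makes fibrin. Antithrombin (Serpinc1) and activated protein C (Proc) restrain the chain, and plasmin, made from Plg, dissolves the clot.

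Each gene had an estimated count and an FPKM value in each library, where FPKM also corrects for transcript length and sequencing depth. Values are given below in the order of library numbers 1, 2 and 3 of each group. Library totals were 65353298, 70910444 and 69907057 counts under HFD and 78549295, 90563477 and 50648778 counts under HTG. CPM stands for counts scaled to a common library size by edgeR's TMM method. The lowest count of any of the 10 genes was 1595, for F11 in HFD library 2, and the highest was 187294, for Plg in HTG library 1, so all lay far above the 12 counts taken as the limit of an empty gene. Together the 10 genes took up 0.885%, 0.913% and 0.918% of each library under HFD and 0.849%, 0.652% and 0.754% under HTG. Every HTG share was below every HFD share, but the summed values overlapped after scaling, at 8489.9, 9706 and 8935.5 CPM under HFD and 8564.7, 6042.9 and 8148.7 CPM under HTG. Mitochondrially encoded rows also separated the groups, at 6.45%, 4.97% and 5.24% of each library under HFD and 9.31%, 15.2% and 13.2% under HTG.

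None of the 10 genes had an adjusted p under 0.05 in the quasi-likelihood test of edgeR, adjusted over all genes tested by the Benjamini-Hochberg method, where 0.0108% of all genes did. DESeq2 also called 0 of the 10, against 7.65% of all its genes higher and 9.37% lower, as did limma on log2 FPKM, against 2.98% higher and 5.05% lower. In edgeR the number was also 0 at an adjusted p under 0.1, against 5.41% of all genes higher and 5.43% lower in the HTG group. At an unadjusted p under 0.05, 0 were higher, where 12.3% of all genes were, and 1, F5, was lower, where 12.4% of all genes were. The CPM of the groups did not overlap for 1 gene that was higher in the HTG group (Proc; 16.5% of all genes) and for 3 that were lower (F2, F5 and F12; 15.5% of all genes). By FPKM, which is not TMM-scaled, 1 gene was higher without overlap (Proc; 13.4% of all genes) and 6 were lower (F2, F5, F7, F12, Serpinc1 and Plg; 17.1% of all genes). The fitted values were above 0 for 2 genes and below 0 for 8, with a median log2 fold change of -0.22, against 0.03 over all genes tested. With 3 libraries against 3, an exact two-sided permutation test of a single gene cannot go below p = 0.1.

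**Figure D1:**
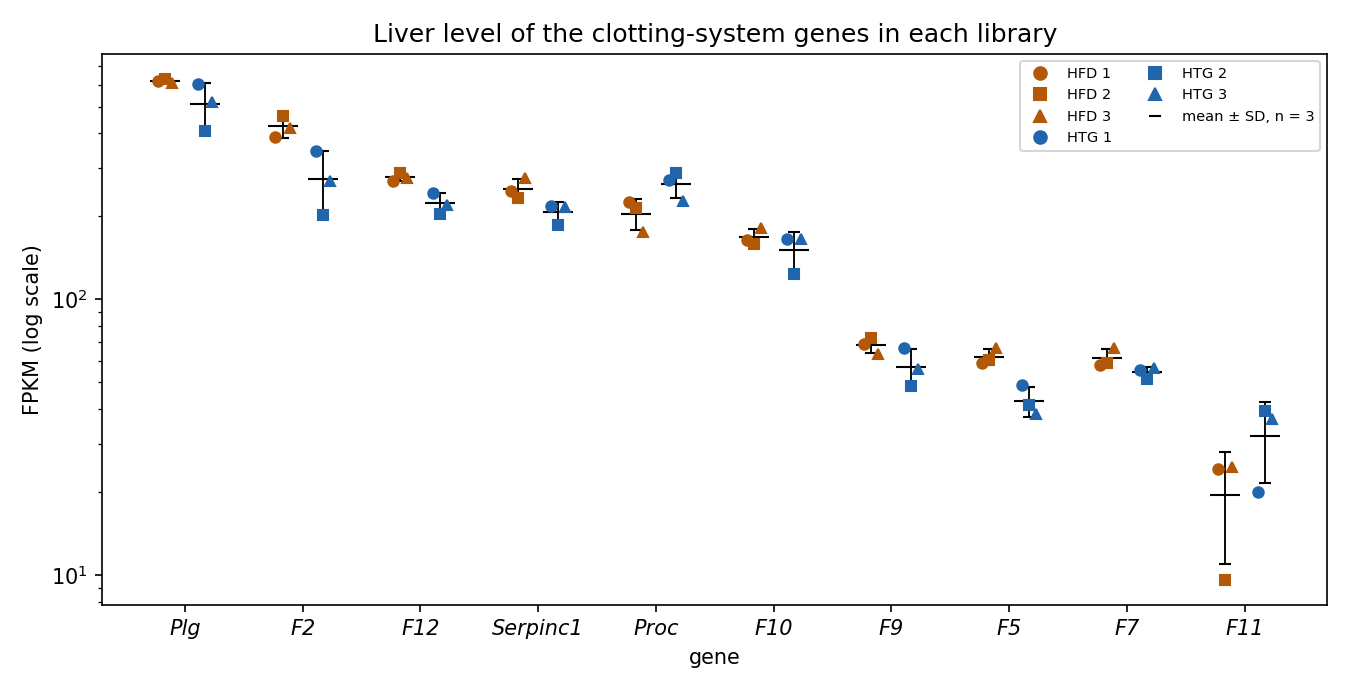
FPKM (log scale) of the 10 genes in each library, with HFD libraries in orange and HTG libraries in blue, symbols for the library number, and black marks for the mean ± SD (n = 3). F2, F5, F7, F12, Serpinc1 and Plg have every HTG library below every HFD library, Proc has every HTG library above, and F11 spreads from 9.64 to 24.7 in the HFD group and from 20.0 to 39.4 in the HTG group.

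Prothrombin is the precursor that the whole chain ends on. F2 (ENSMUSG00000027249, chromosome 2, 91455674 to 91466752, minus strand) was listed with 120758, 157515 and 139660 counts under HFD and 133030, 89928 and 66682 counts under HTG. After scaling these were 1773, 2362 and 1944 CPM under HFD and 1708, 920 and 1424 CPM under HTG. All HTG values were under all HFD values, but HTG library 1 came close to HFD library 1, and HTG library 2 was far under the rest. The log2 fold change of HTG against HFD was -0.59 (95% interval -1.23 to 0.06, edgeR adjusted p = 0.242), and -0.37 without HTG library 2. Without HTG library 1 it was -0.83, with an unadjusted edgeR p of 0.0178. The FPKM of F2 was 424 ± 38.9 in the HFD group and 273 ± 72.2 in the HTG group (SD, n = 3).

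Factor V is not a protease but the cofactor that speeds the cutting of prothrombin. F5 (ENSMUSG00000026579, chromosome 1, 163979407 to 164047846, plus strand) had 436, 497 and 499 CPM under HFD and 389, 305 and 327 CPM under HTG. The groups did not overlap, and HTG library 1 was the highest of its group. The fitted log2 fold change was -0.49 (95% interval -0.94 to -0.03) with an unadjusted edgeR p of 0.038 and an adjusted p of 0.175. Leaving out HTG library 1 gave -0.64 with an unadjusted edgeR p of 0.0148, while leaving out any other single library gave -0.55 to -0.41 with an unadjusted p of 0.0558 to 0.117. Its adjusted p was 0.0502 with DESeq2, the smallest over all alternatives, and 0.39 at most. Its FPKM was 58.8, 60.5 and 66.7 under HFD and 48.9, 41.5 and 38.4 under HTG, again without overlap.

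Factor X is the protease that cuts prothrombin, and factor VII is the one that tissue factor switches on. F10 (ENSMUSG00000031444, chromosome 8, 13087308 to 13106676, plus strand) had 447, 480 and 500 CPM under HFD and 484, 334 and 519 CPM under HTG. F7 (ENSMUSG00000031443, chromosome 8, 13076034 to 13085809, plus strand) had 107, 121 and 125 CPM under HFD and 110, 94.9 and 121 CPM under HTG. Both overlapped between the groups, and in both HTG library 2 was the lowest library. The log2 fold change of F10 was -0.09 (95% interval -0.61 to 0.42, edgeR adjusted p = 0.83), and it turned to 0.08 without HTG library 2. That of F7 was -0.12 (95% interval -0.52 to 0.29, edgeR adjusted p = 0.722). These intervals run from 0.654-fold to 1.34-fold for F10 and from 0.697-fold to 1.22-fold for F7.

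In the contact route, F11 was the gene with the widest spread. F11 (ENSMUSG00000031645, chromosome 8, 45694211 to 45715068, minus strand) was listed with 3677, 1595 and 4004 counts under HFD and 3747, 8528 and 4442 counts under HTG. These were 54.0, 23.9 and 55.7 CPM under HFD and 48.1, 87.2 and 94.8 CPM under HTG. HFD library 2 was low and HTG libraries 2 and 3 were high, while HTG library 1 lay under both other HFD libraries, so the groups overlapped. The fitted log2 fold change was 0.78 (95% interval -0.05 to 1.62, edgeR adjusted p = 0.229), 0.48 without HFD library 2 and 0.98 without HTG library 1, with an unadjusted edgeR p of 0.0294 in the last case. The SD of log2 CPM within groups was 0.62 for F11, against 0.15 to 0.36 for the other 9 genes.

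Factor XII begins that route and factor IX acts after factor XI. F12 (ENSMUSG00000021492, chromosome 13, 55565771 to 55574606, minus strand) had 526, 625 and 544 CPM under HFD and 513, 397 and 495 CPM under HTG. F9 (ENSMUSG00000031138, chromosome X, 59044824 to 59076119, plus strand) had 189, 218 and 175 CPM under HFD and 195, 131 and 176 CPM under HTG. F12 did not overlap between the groups although HTG library 1 was close to HFD library 1, and F9 did overlap. Their log2 fold changes were -0.27 (95% interval -0.74 to 0.20) and -0.21 (95% interval -0.70 to 0.27), with edgeR adjusted p-values of 0.447 and 0.569. Without HTG library 2 they were -0.16 and -0.06. The 3 genes of the contact route thus had fitted values on both sides of 0.

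Antithrombin blocks thrombin and factor Xa directly, whereas protein C, once activated, cuts the cofactors V and VIII. Serpinc1 (ENSMUSG00000026715, chromosome 1, 160806155 to 160830033, plus strand) had 2107, 2204 and 2379 CPM under HFD and 1991, 1569 and 2127 CPM under HTG. HTG library 3 exceeded HFD library 1, so the groups overlapped, and HTG library 2 was the lowest. The log2 fold change was -0.23 (95% interval -0.75 to 0.28, edgeR adjusted p = 0.553). Proc (ENSMUSG00000024386, chromosome 18, 32256179 to 32272623, minus strand) had 555, 588 and 437 CPM under HFD and 721, 705 and 651 CPM under HTG. Here every HTG library was above every HFD library, and HFD library 3 was the lowest. The fitted log2 fold change was 0.39 (95% interval -0.08 to 0.87, edgeR adjusted p = 0.279), and it ran from 0.27 without HFD library 3 to 0.48 without HFD library 2 as single libraries were left out.

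Plasminogen circulates as an inactive precursor until plasminogen activators cut it. Plg (ENSMUSG00000059481, chromosome 17, 12597495 to 12638272, plus strand) had 2295, 2587 and 2277 CPM under HFD and 2404, 1499 and 2214 CPM under HTG. Only HTG library 2 stood apart, and HTG library 1 was above HFD libraries 1 and 3. The log2 fold change was -0.23 (95% interval -0.80 to 0.35, edgeR adjusted p = 0.613), and -0.05 without HTG library 2. Its FPKM was 620 ± 10.3 in the HFD group and 511 ± 98.3 in the HTG group (SD, n = 3).

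**Figure D2:**
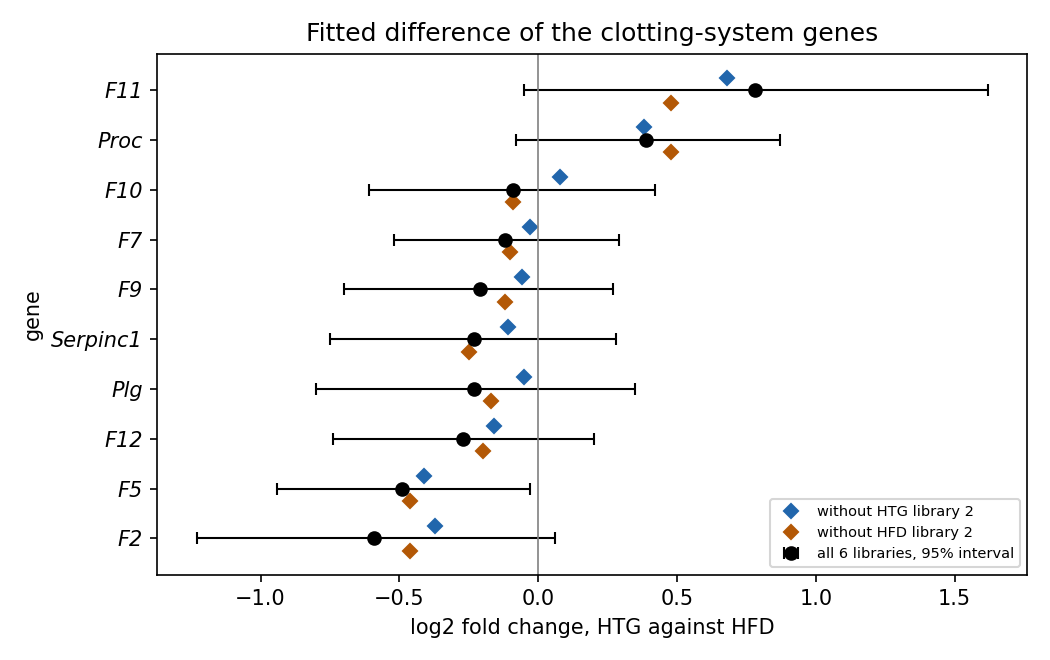
Log2 fold change of HTG against HFD for the 10 genes, with all 6 libraries (black, bars are 95% intervals of the edgeR fit), without HTG library 2 (blue) and without HFD library 2 (orange). Only the interval of F5, -0.94 to -0.03, excludes 0, and the value of F10 moves from -0.09 to 0.08 without HTG library 2.

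HTG library 2 had the lowest CPM of the 6 libraries for 8 of the 10 genes, that is 80% against 21.5% of all genes tested, and the exceptions were F11 and Proc. The median of the 10 genes' centred log2 CPM was 0.04, 0.18 and 0.11 under HFD and 0.04, -0.39 and 0.04 under HTG. HTG libraries 1 and 3 thus lay at the level of HFD library 1. Without HTG library 2 the median log2 fold change of the 10 genes was -0.06, and without any other single library it lay between -0.35 and -0.15. That library also had the highest mitochondrial share, 15.2%, and whether the 2 are linked was not tested.

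Within the HFD group the genes ordered by FPKM as Plg (620), F2 (424), F12 (278), Serpinc1 (252), Proc (205), F10 (168), F9 (68.4), F5 (62.0), F7 (61.1) and F11 (19.5), a span of 31.8-fold. F12 and Serpinc1, Proc and F10, F9 and F5, and F5 and F7 were neighbours whose library ranges overlapped. In the HTG group the means were 511 for Plg, 273 for F2, 263 for Proc, 223 for F12, 207 for Serpinc1, 151 for F10, 57.1 for F9, 54.5 for F7, 42.9 for F5 and 32.1 for F11, a span of 15.9-fold. There the ranges overlapped between F2 and Proc, Proc and F12, F12 and Serpinc1, F9 and F7, and F5 and F11. Proc was thus the fifth in the HFD group and the third in the HTG group, and F7 and F5 traded places. These levels depend on the transcript length behind the FPKM. The length implied by the ratio of count to FPKM was 8839 to 9126 bases for Serpinc1 and 4752 to 4906 bases for F2, against 2027 to 2093 bases for F12, and the table lists retained-intron transcripts for Serpinc1, Proc and Plg.

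The genes that followed the 10 most closely over the 6 libraries were sought by the root mean square difference of centred log2 CPM among 14369 other genes whose mean count was 50 or more. Serpinc1 lay nearest to Ddx31 (0.022), Proc to Mrpl24 (0.019), F12 to Snx3 (0.028), F5 to Tex2 (0.033) and F9 to Mrfap1 (0.035). F7 lay nearest to Dicer1 (0.045), F10 to Ufm1 (0.047), Plg to Cetn3 (0.048), F2 to Emc3 (0.050) and F11 to Zkscan7 (0.082). Among themselves, F9 and Plg were the closest pair (0.060), and Serpinc1 and F7 followed (0.079), as did F12 with F9 (0.079). F11 and Proc stood apart, with their nearest other member at 0.639 (Proc) and 0.342 (F7). Among all genes searched, the nearest other member ranked 4 for Plg, 8 for F9, 24 for F10, 36 for Serpinc1 and 38 for F7. It ranked 64 for F12, 571 for F2, 590 for F5, 4685 for Proc and 4808 for F11. For each of the 10, other genes thus lay closer than any member. A nearest profile picked from so many genes over 6 libraries is a description only.

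Some of the genes are neighbours on the chromosome. F7 ends 1498 bases before F10 on the same strand of chromosome 8, with no listed gene between them, and Proz, which encodes the related protein Z, follows 4237 bases after F10. The fitted log2 fold changes along this cluster were -0.12, -0.09 and 0.15. F11 lies 4657 bases from Klkb1, the gene of plasma prekallikrein, which activated factor XII cuts, on the same strand and with no listed gene between. Klkb1 had a log2 fold change of 0.36 (edgeR adjusted p = 0.348) beside the 0.78 of F11. Without HTG library 2 the values of Klkb1 and F11 were 0.17 and 0.68. Serpinc1 and F5 share chromosome 1 but are 3149373 bases apart with 61 listed genes between them. The sources used here do not say whether strand entered the counting, and the spans of F5, Serpinc1 and Plg overlap other listed genes, whose mean counts were at most 2.31% of the gene's own (Gm16548, antisense to F5).

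The rest of the clotting system was read from 8 lists with 65 genes, of which 62 were tested and Serpina5, Serpinb2 and Bglap were not. No listed gene had an edgeR adjusted p under 0.05. DESeq2 called 3 higher (Foxa1, Foxa2 and Onecut1) and 7 lower, where 7.65% and 9.37% of all its genes were. Limma called 0 higher and 2 lower (F13b and Sec23a), where 2.98% and 5.05% of all its genes were. The limma fit held only genes with a mean FPKM of 1 or more, which left out Plau (0.882) among others. At an edgeR adjusted p under 0.1, 2 were higher and 6 lower, against 5.41% and 5.43% of all genes, and at an unadjusted p under 0.05, 5 were higher and 11 lower, against 12.3% and 12.4%. Of the 8 genes under an adjusted p of 0.1, all 8 left that range without HFD library 2, HFD library 3, HTG library 2 or HTG library 3, 7 did without HFD library 1, and 1 (Furin) did without HTG library 1. The median log2 fold change of all 62 genes tested was -0.05. The genes named below are given with their values, since none had an adjusted p under 0.05 in this test. In each list below, counts at an edgeR adjusted p under 0.1 stand against the same 5.41% higher and 5.43% lower.

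Of the 11 other zymogens, substrates and cofactors, 0 were higher and 1 was lower at an edgeR adjusted p under 0.1, with a median log2 fold change of 0.11. The lower gene was F13b, the carrier subunit of the fibrin-crosslinking factor XIII. It had 129, 161 and 168 CPM under HFD and 79.8, 55.5 and 63.9 CPM under HTG. The groups lay well apart, and the log2 fold change was -1.20 (SE 0.21, edgeR adjusted p = 0.0542). Its edgeR adjusted p was 0.0393 with at least 10 counts in every library, 0.0399 with counts divided by 4, 0.0449 with no filter and 0.0414 without HTG library 1, in a range over all alternatives of 1.38e-05 (DESeq2) to 0.188 (without HTG library 2). The fibrinogen chain genes Fgb and Fgg were far more variable. Fgb had 7158, 4824 and 12122 CPM under HTG against 4066 to 6174 CPM in the HFD group, and Fgg had 6155, 2547 and 8522 CPM against 2966 to 4911 CPM. Their log2 fold changes were 0.62 (edgeR adjusted p = 0.336) and 0.49 (edgeR adjusted p = 0.517), and HTG library 2 was again the lowest of its group for both. Without HTG library 3 they were 0.21 and 0.10, and without HTG library 2 they were 0.88 and 0.84. Fga, the remaining fibrinogen chain, had 4797, 5859 and 4002 CPM under HFD and 5487, 1913 and 7351 CPM under HTG. Its log2 fold change was 0.01 (edgeR adjusted p = 0.993), and 0.39 without HTG library 2, its lowest.

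Among the other anticoagulants, 9 of 10 were tested, 0 were higher and 1 was lower at an edgeR adjusted p under 0.1, and the median was -0.21. The lower gene was Serpind1, which encodes heparin cofactor II, an inhibitor of thrombin like antithrombin. It had 451, 384 and 516 CPM under HFD and 311, 229 and 255 CPM under HTG. The groups did not overlap, and its log2 fold change was -0.77 (SE 0.22, edgeR adjusted p = 0.0858). Serping1, the inhibitor of complement C1 and of factor XIIa, had 1053, 1350 and 945 CPM against 1039, 592 and 1143 CPM, and Tfpi, the tissue factor pathway inhibitor, had only 4.67, 3.19 and 3.95 CPM against 4.39, 7.15 and 5.42 CPM. Both overlapped, with log2 fold changes of -0.27 and 0.52 (edgeR adjusted p-values of 0.603 and 0.284). These moved to -0.03 and 0.32 without HTG library 2.

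For fibrinolysis, 10 of 11 listed genes beside Plg were tested, 0 were higher and 1 was lower at an edgeR adjusted p under 0.1, and the median was -0.46. Plau, the urokinase that activates plasminogen, was the lower one, listed with 183, 165 and 303 counts under HFD and 143, 102 and 36 counts under HTG. After scaling, the groups did not overlap (3.13 ± 0.952 against 1.22 ± 0.554 CPM, SD, n = 3), with a log2 fold change of -1.36 (SE 0.41, edgeR adjusted p = 0.0983). Plgrkt, a plasminogen receptor, had 12.0 ± 3.53 CPM in the HFD group and 19.9 ± 3.57 CPM in the HTG group. Its CPM did not overlap between the groups, whereas its FPKM did. The log2 fold change was 0.72 (edgeR adjusted p = 0.119). The plasmin inhibitor Serpinf2 and the plasma protein Hrg, which binds plasminogen, were abundant, at 328 and 831 FPKM in the HFD group and 238 and 634 FPKM in the HTG group. Their log2 fold changes were -0.40 and -0.33 (edgeR adjusted p-values of 0.323 and 0.477), and -0.24 and -0.14 without HTG library 2.

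Factors II, VII, IX and X and protein C need vitamin K for the gamma-carboxylation of glutamates before they can bind calcium and membranes. Ggcx, the carboxylase, had 38.1, 34.2 and 61.5 CPM under HFD and 47.3, 55.3 and 57.1 CPM under HTG, and Vkorc1, the reductase that recycles the vitamin, had 106, 120 and 94.9 CPM against 127, 108 and 103 CPM. Both overlapped between the groups, with log2 fold changes of 0.25 and 0.08 (edgeR adjusted p-values of 0.547 and 0.826). Ggcx ran from 0.09 without HFD library 2 to 0.55 without HFD library 3. The quinone reductase Nqo1 had 10.9, 5.71 and 8.83 CPM against 5.17, 3.83 and 2.78 CPM, with a log2 fold change of -1.11 (SE 0.33, edgeR adjusted p = 0.0936). Nqo1 did not overlap between the groups. Over the 6 genes of the list the median was -0.46, with 0 higher and 1 lower at an edgeR adjusted p under 0.1. Of other Gla proteins, 6 of 7 were tested, with a median of 0.25 and none under an adjusted p of 0.1. Gas6 and Prrg2 had log2 fold changes of 0.44 and -0.23 (edgeR adjusted p-values of 0.475 and 0.506), and the other named genes of the list had few counts. Mgp, a protein of cartilage and vessel walls, was listed with 18, 0 and 16 counts under HFD and 45, 97 and 22 counts under HTG, and Prrg1 with 28, 5 and 48 counts under HFD and 65, 150 and 30 counts under HTG. After scaling, Mgp did not overlap between the groups and Prrg1 did, with log2 fold changes of 2.06 (SE 1.01, edgeR adjusted p = 0.253) and 1.38 (SE 0.74, edgeR adjusted p = 0.288). Over the alternatives the value of Mgp ran from 1.48 without HFD library 2, its only library at 0, to 2.58, and that of Prrg1 from 0.45 with limma and no filter to 2.04 without HFD library 3.

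Factor V leaves the endoplasmic reticulum with the cargo receptor of Lman1 and Mcfd2, and furin cuts the propeptides of several factors. The 8 secretion and processing genes had a median of -0.19, with 0 higher and 2 lower at an edgeR adjusted p under 0.1. Furin had 143, 162 and 202 CPM under HFD and 100, 112 and 94.3 CPM under HTG, and Sec23a, a coat subunit of the vesicles that leave the endoplasmic reticulum, had 61.4, 82.8 and 68.7 CPM against 49.7, 33.6 and 41.8 CPM. Neither overlapped, and their log2 fold changes were -0.72 (SE 0.20, edgeR adjusted p = 0.0816) and -0.77 (SE 0.21, edgeR adjusted p = 0.0785). Mcfd2 and Lman1 had log2 fold changes of -0.70 and -0.30 (edgeR adjusted p-values of 0.154 and 0.439). As single libraries were left out, Mcfd2 ran from -0.98 to -0.48. Lman1 ran from -0.43 without HFD library 2 to -0.07 without HFD library 3. Sec24a, another coat subunit, went the other way, with 66.1, 71.4 and 72.6 CPM under HFD and 89.2, 106 and 102 CPM under HTG. The groups did not overlap, and its log2 fold change was 0.50 (SE 0.16, edgeR adjusted p = 0.112).

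Of 8 factors of hepatocyte transcription that bind clotting-gene promoters, 2 were higher and 0 lower at an edgeR adjusted p under 0.1. Over all genes, 5.41% were higher and 5.43% lower. The median log2 fold change of the 8 was 0.28. Foxa1 had 12.9, 15.4 and 10.2 CPM under HFD and 16.9, 24.1 and 22.5 CPM under HTG, and Foxa2 had 27.2, 24.0 and 23.5 CPM against 37.4, 68.9 and 34.4 CPM. The groups did not overlap in either gene, with log2 fold changes of 0.72 (SE 0.22, edgeR adjusted p = 0.0963) and 0.91 (SE 0.27, edgeR adjusted p = 0.0948). Without HTG library 2, the highest for both, they were 0.62 and 0.53, with edgeR adjusted p-values of 0.285 and 0.235. Hnf4a had 450, 1082 and 454 CPM against 499, 319 and 394 CPM, so HFD library 2 alone set its group apart, and its log2 fold change was -0.71 (edgeR adjusted p = 0.282) or -0.17 without that library. Cebpa had a log2 fold change of -0.03 (edgeR adjusted p = 0.96). Onecut1 had 2.66, 4.75 and 7.45 CPM under HFD and 14, 6.58 and 27.5 CPM under HTG, so the groups overlapped. Its log2 fold change was 1.69 (SE 0.54, edgeR adjusted p = 0.107), and 2.07 without HTG library 2. The receptors that thrombin and other proteases cut gave none of 4 under an adjusted p of 0.1, with a median of -0.28. The fitted values were above 0 for 2 of them and below 0 for 2. F2r and F2rl1 had log2 fold changes of -0.79 and -1.15 (edgeR adjusted p-values of 0.249 and 0.23). The value of F2rl1 rests on few counts, listed as 37, 32 and 52 under HFD and 16, 24 and 16 under HTG. F2r moved to -0.52 without HFD library 1. Without HFD library 2, its lowest, F2r was at -1.15 (edgeR adjusted p = 0.122). F2rl2 ranged over 16 to 34 counts under HFD and 17 to 111 counts under HTG, with a log2 fold change of 1.07 (edgeR adjusted p = 0.324).

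Markers of liver cell types were compared beside these genes, and in whole liver fewer cells of a type and less RNA per cell cannot be told apart. The 6 hepatocyte markers, led by Alb, summed to 75513, 84428 and 93264 CPM under HFD and to 69779, 70552 and 70324 CPM under HTG. Every HTG sum was below every HFD sum. At an edgeR adjusted p under 0.1, 0 were higher and 2 lower (Cps1 and Tat), against 5.41% and 5.43% of all genes. By CPM, 4 of the 6 (Alb, Cps1, Tat and Serpina1c) were lower without overlap, where 15.5% of all genes were. Only Apoa2 was higher without overlap (16.5% of all genes), at 2107, 2318 and 1432 CPM under HFD and 3657, 3954 and 2982 CPM under HTG. Its log2 fold change was 0.85 (edgeR adjusted p = 0.104). Alb made up 76.6% to 79.9% of the hepatocyte sum in every library. Of the 6 markers, 3 (Cps1, Tat and Serpina1c) had their lowest value in HTG library 2, with Tat at 807, 372 and 1011 CPM under HTG, while Ttr (6018 CPM) and Apoa2 (3954 CPM) had their highest value there. The 6 sinusoidal endothelial markers, led by Stab1, summed to 150, 74.3 and 123 CPM against 176, 197 and 134 CPM, and the 6 Kupffer cell markers, led by Clec4f, to 497, 280 and 484 CPM against 475, 428 and 254 CPM. HFD library 2 was the lowest for F11 and for the endothelial sum, as it was for 20.7% of all genes tested. At an edgeR adjusted p under 0.1, 1 Kupffer cell marker (Adgre1, log2 fold change -1.53, edgeR adjusted p = 0.0538) was lower. So was 1 stellate cell marker (Reln, -0.70, edgeR adjusted p = 0.0935), and 1 biliary marker (Sox9, 0.79, edgeR adjusted p = 0.0939) was higher. Of the endothelial, leukocyte, platelet and red cell markers, 0 were higher or lower by this test. DESeq2 at an adjusted p under 0.05 called 1 hepatocyte, 1 endothelial, 1 biliary and 2 platelet markers higher (7.65% of all genes). It called 2 hepatocyte markers, 1 Kupffer cell marker and 1 stellate cell marker lower (9.37% of all genes). In limma, 2 hepatocyte markers and 1 Kupffer cell marker were lower (5.05%) and 0 markers were higher (2.98%). That fit left out markers with a mean FPKM under 1, such as Reln (0.835) and Epcam (0.937). Without HTG library 2 the adjusted p-values of Cps1, Tat, Adgre1, Reln and Sox9 in edgeR were 0.188 to 0.238, and without HFD library 2 they were 0.122 to 0.194. In the same lists the stellate cell marker Des (0.68, edgeR adjusted p = 0.143) and the biliary marker Epcam (-0.95, edgeR adjusted p = 0.158) went the other way without overlap. The 5 platelet markers, led by Itga2b, summed to 7.30, 8.76 and 5.36 CPM against 12.5, 26.7 and 10.2 CPM, with 3 of the 4 tested higher at an unadjusted p under 0.05, against 12.3% of all genes, and HTG library 2 the highest. Without that library 0 of the 4 were. The 6 stellate cell markers, led by Dcn, summed to 262, 210 and 249 CPM against 262, 214 and 178 CPM, and the 5 biliary markers, led by Spp1, to 85.3, 98.5 and 106 CPM against 70.5, 59.5 and 131 CPM. The 6 leukocyte markers, led by S100a9, summed to 52.5, 65.5 and 55.0 CPM against 39.8, 58.2 and 82.1 CPM, and the 5 red cell markers, led by Hba-a1, to 257, 234 and 422 CPM against 279, 484 and 258 CPM. Only Cd79a was at 0 in any library. The part of cell types in the values of the clotting genes was not tested.

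Promoter letters are shown because the same liver transcription factors are known at many of these genes. RefSeq promoters were held for the rat build GRCr8 only, 250 bases before to 50 after each gene's start, and all 10 symbols matched. The nuclear receptor core AGGTCA, searched on both strands (TGACCT on the other), was found in 5 of the 10 (F2, F7, F9, F10 and Serpinc1) and in 16.2% of 33469 promoters of the same length. The HNF1 core GTTAAT, also on both strands (ATTAAC), was found in 3 of the 10 (F2, Proc and Plg) and in 7.45% of all. The motifs share no letters of overlap in any of these promoters, and they were chosen after the sequences were seen, so the shares are a description. Windows of 30 bases read along the gene's strand follow, with the matched letters in capitals.
F7, chr16:83202769-83202798, minus strand: tcccctcctcccTGACCTttgccctcccgg
F10, chr16:83190290-83190319, minus strand: tccccagtccccTGACCTcatcgctggccc
F9, chrX:143388604-143388633, plus strand: atctcctaacaaAGGTCAggcggcacctga
Serpinc1, chr13:75790470-75790499, plus strand: gtcatcagccttTGACCTcggccctcctct
F2, chr3:98065308-98065337, minus strand: gccctgatctgcTGACCTctcccttgccac
F2, chr3:98065267-98065296, minus strand: cattggttcaatATTAACccagagagagtc
Plg, chr1:50915456-50915485, minus strand: gcccagacaatgATTAACctcatcagacta
The matches began 79, 48, 26, 27 and 76 bases before the gene start in F2, F7, F9, F10 and Serpinc1 for the nuclear receptor core, and 38, 38 and 67 bases before it in F2, Proc and Plg for the HNF1 core. The window of Proc is not shown. A match of letters says nothing about binding in these livers.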

How the data were processed

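The authors deposited an estimated count, listed in whole numbers, and an FPKM for every gene in every library. The submitters' processing notes name HISAT2, StringTie, SAMtools and the build mRatBN7.2, with no versions or roles, and the rows are mouse Ensembl genes, and coordinates were copied from the table with no build named. Low counts came in steps of about 4, so a fragment was taken as 4 counts, giving 12662194 to 22640869 fragments per library and a limit of 3 fragments, or 12 counts, for an empty gene, which covers counting error only.

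Counts were tested with edgeR 4.0.16 (TMM scaling, filterByExpr, glmQLFit and glmQLFTest, group as the only term) in R 4.3.3, and p-values were adjusted by the Benjamini-Hochberg method over all genes tested. Intervals are 95% intervals of this fit. DESeq2 1.42.0, limma 3.58.1 on log2(FPKM + 0.1) with the mean FPKM at 1 or more, other filters and scalings, counts divided by 4, the replicate number as a block and each library left out in turn were the alternatives. The fits were tested on simulated counts with known changes.

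All 10 genes were named, and from each of 8 lists every gene with an adjusted p under 0.1, the 2 with the smallest unadjusted p and the 2 with the highest mean FPKM, of which 1 gene is not reported here. The members and lists were chosen with earlier results of these data known. Beyond this rule, Klkb1, Proz, Gm16548 and the cell markers were named for position, overlap or cell type, genes with the nearest profile by the measure given, and Serpina5, Serpinb2 and Bglap as not tested. Fga, Sec24a and Onecut1 were chosen after their values were seen.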

Additional observations from a re-analysis of the deposited data

How the results depend on the processing

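Over 17 alternatives, none of the 10 genes had an adjusted p under 0.05, and their median log2 fold change ran from -0.35 to -0.06. At an unadjusted p under 0.05, 1 gene was higher with DESeq2 and with no filter (0 to 1 without single libraries), and 2 were lower with DESeq2 and with each limma fit on FPKM (0 to 2 without single libraries). With the replicate block 0 were lower, and 0 genes in all were called, against 2. Same-numbered libraries did not deviate together (r = -0.078, -0.073 and 0.101), and not every library correlated best with its own number. Left out singly, libraries moved F10 from -0.21 to 0.08, Vkorc1 from -0.06 to 0.16, Gas6 from -0.02 to 0.74 and Cebpa from -0.27 to 0.18. Cebpa was 0.02 with the replicate block and 0.01 with upper-quartile scaling. By mean CPM in place of FPKM, 4 of the 10 genes kept their rank in the HFD group and 3 in the HTG group. Over all genes, 1 higher and 1 lower call passed an adjusted p of 0.05, but the numbers were 1109 and 1358 with DESeq2, 326 and 552 with limma (329 and 555 with a pseudocount of 1, 0 and 0 with no filter), 459 and 363 with counts divided by 4, 369 and 315 with at least 10 counts in every library, 86 and 76 with no filter, and 10 and 4 without mitochondrial rows. Without single libraries they ran from 0 to 234 and from 0 to 419. The cause of these differences was not tested. DESeq2 put F13b, Serpind1, Plau, Nqo1, Furin, Sec23a, Foxa1 and Foxa2 under that threshold, as other filters did for F13b and limma with its filter did for F13b and Sec23a. With the replicate block all 8 had an adjusted p of 0.143 to 0.176. In edgeR and limma with no filter, 6 of the 8 (Serpind1, Plau, Nqo1, Furin, Foxa1 and Foxa2) exceeded an adjusted p of 0.1.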
